A study of Homo sapiens with 9 samples.

Results

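The inflammatory chemokines CXCL1, CXCL2, CXCL3, CXCL5, CXCL6, CXCL8 and CCL2, the IL6 family cytokines IL6 and LIF, and the cytokine IL1B are secreted proteins described here in WM793TR melanoma cells with constructs made to lower or to raise TWIST1. These 10 genes were chosen by name and looked up by gene ID among the 19934 genes measured, and all 10 had a probe set. These genes and the other gene lists below were chosen with earlier results of these data known. Their counts beside all genes therefore describe and do not test. WM793TR is an established human melanoma line that carries mutant BRAF and comes from the vertical growth phase. Every culture was given 100 ng/mL doxycycline for 96 h to switch on its construct, and total RNA was amplified and hybridized to single-colour expression arrays, 3 per group and 9 in all. The shTWIST1 + TWIST1 cells, labelled TWIST1 overexpression, carried the TWIST1 shRNA together with a TWIST1 construct driven by the CMV promoter. The shTWIST1 cells, labelled TWIST1 knockdown, carried the shRNA alone. The shControl cells, labelled TWIST1 basal, were read as those with the control shRNA. All groups had therefore received doxycycline and an shRNA, the CMV promoter does not follow the cell's own control of TWIST1, and a difference between groups cannot be told apart from other differences between the cell populations. The labels number the arrays of a group from 1 to 3 and do not say that they came from separate cultures. The study's methods state in general that experiments were repeated independently, without naming the arrays, so a p-value measures the spread between these arrays, which may be technical.

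Chemokines with a Glu-Leu-Arg motif (CXCL1, CXCL2, CXCL3, CXCL5, CXCL6 and CXCL8) attract neutrophils through the receptors CXCR1 and CXCR2, and CCL2 attracts monocytes through CCR2. IL6 and LIF bind their own receptor chains, which signal through the shared subunit gp130 (IL6ST), JAK kinases and STAT3, while IL1B binds IL1R1 with its partner IL1RAP and activates NF-kB. Most of these genes are known targets of NF-kB, their mRNAs turn over quickly, and melanoma cells are known to secrete several of them.

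TWIST1 itself had log2 values of 8.75, 8.90 and 8.27 on the shTWIST1 + TWIST1 arrays, of 6.18, 6.22 and 6.28 on the shTWIST1 arrays, and of 6.77, 7.10 and 7.15 on the shControl arrays, in each case for arrays 1, 2 and 3. The groups did not overlap, and the shTWIST1 + TWIST1 arrays lay above the shControl arrays. In shTWIST1 against shControl the difference was -0.78 and did not pass over all genes (limma adjusted p = 0.293). The melanoma markers SOX10 and S100B were bright, while PMEL, MLANA, TYR and TYRP1, which mark pigmented melanocytes, lay under the 30th percentile of all genes, the level called dim here. Of 12 leukocyte markers, 10 were dim, and their means lay between the 2.09th and the 47.0th percentile, which shows where genes that these cells should lack were read. S100B was lower in shTWIST1 + TWIST1 cells, and the 6 fibroblast markers summed to 33.4 to 39.6 on the shTWIST1 + TWIST1 arrays, 30.2 to 31.6 on the shTWIST1 arrays and 31.3 to 32 on the shControl arrays, all in log2 units. None of those 6 was dim, PDGFRA rose in both comparisons with shTWIST1 + TWIST1 cells, and COL3A1 rose against shTWIST1 (0.95, limma adjusted p = 0.0454), a call that held in 2 of 9 fits that left out 1 array. The others did not pass, and THY1 differed by -0.76 from shControl and by -0.69 from shTWIST1 (limma adjusted p = 0.422 and 0.407), while COL1A1 differed by 0.04 and -0.11. One shTWIST1 + TWIST1 array stood apart in this list, number 1, with DCN at 6.68 and LUM at 7.85, against at most 3.50 and 6.28 on any other array. The sum of 39.6 was that array's, and it raised the mean of DCN, which lay at the 34.7th percentile. The part of these markers in the results below was not tested. In such bulk RNA, fewer expressing cells and less RNA per cell cannot be told apart.

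The promoters of these genes are shown because 7 of the 8 that RefSeq windows cover share a short NF-kB-like word, and because some of the chemokine windows, those of CXCL1, CXCL2 and CXCL3 and those of CXCL5 and CXCL6, are much alike. The RefSeq table (GRCh38.p14) held windows of 300 bases, with 250 before and 50 after the start, for all members other than CCL2 and LIF. The word GGNNTTTCC, in which N is any base, was found on either strand in 7 of the 8 windows and in 6.26% of all 27305 windows. The lines give the 60 bases around it, 5′ to 3′ on the gene's strand, with each match in capitals.
CXCL1, chr4:73869290-73869349, plus strand: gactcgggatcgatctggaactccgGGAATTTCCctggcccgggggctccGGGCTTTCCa
CXCL2, chr4:74099238-74099297, minus strand: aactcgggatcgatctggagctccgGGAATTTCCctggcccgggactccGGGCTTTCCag
CXCL3, chr4:74038733-74038792, minus strand: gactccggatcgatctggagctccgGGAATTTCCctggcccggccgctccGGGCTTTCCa
CXCL5, chr4:73998733-73998792, minus strand: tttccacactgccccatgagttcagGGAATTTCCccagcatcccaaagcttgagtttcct
CXCL6, chr4:73836564-73836623, plus strand: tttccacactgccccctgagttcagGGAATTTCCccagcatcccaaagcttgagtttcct
CXCL8, chr4:73740453-73740512, plus strand: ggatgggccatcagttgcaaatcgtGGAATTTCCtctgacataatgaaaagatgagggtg
IL6, chr7:22727103-22727162, plus strand: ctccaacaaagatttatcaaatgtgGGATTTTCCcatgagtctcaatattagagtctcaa

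CXCL1, CXCL2 and CXCL3 each carried the word at a pair of positions, which began 78 and 53 bases before the start in CXCL1 and CXCL3 and 77 and 53 bases before it in CXCL2. The others carried it at a single position, 90 bases before the start in CXCL5, 89 in CXCL6, 91 in CXCL8 and 72 in IL6, and the IL1B window had no match. Aligned over their whole windows, CXCL5 and CXCL6 were 83.1% identical, CXCL1 and CXCL3 82.5%, CXCL2 and CXCL3 73.8% and CXCL1 and CXCL2 71.9%. The 11 other pairs of chemokine windows were 45.2% to 55.4% identical, those with CXCL8 at most 48.0%, beside 49.0% to 52.6% for pairs with IL6 or IL1B. The 6 CXC chemokine genes lie in a chemokine cluster on chromosome 4, in which RefSeq places CXCL8, CXCL6, PF4V1, CXCL1, PF4, PPBP, CXCL5, CXCL3 and CXCL2 in that order. Whether the probes of alike genes also bound RNA of a neighbour was not tested. The E-box CANNTG, the core letters bound by basic helix-loop-helix factors such as TWIST1, was in the windows of CXCL2, CXCL8, IL6 and IL1B and in 68.9% of all windows. The AP-1 word TGANTCA was in the CXCL8 window and in 7.76% of all, and the C/EBP-like word TTGCNNAA was in those of CXCL2, IL6 and IL1B and in 10.6% of all. Both strands were searched, and the only matches that overlapped were the E-box and the C/EBP-like word of IL1B. A match describes letters and shows no binding.

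Of the 10 genes, CXCL1 alone passed the threshold of an adjusted p under 0.05 (limma with no block, over all genes). It was higher in shTWIST1 + TWIST1 cells than in either other group. It was 1 of 10 against shControl, where 2.62% of all genes passed in either direction and 1.08% were higher, and 1 of 10 against shTWIST1, where 3.42% passed and 1.65% were higher. Same-numbered arrays of shTWIST1 + TWIST1 and shTWIST1 were taken as paired. With the number as a block, 3 of 10 passed there (CXCL1, CXCL8 and LIF), beside 5.4% of all genes. In shTWIST1 against shControl, 0 of 10 passed with limma, beside 0.0652% of all genes. There 0 of 10 had an unadjusted p under 0.05, beside 6.62% of all genes. At an unadjusted p under 0.05, 2 of 10 (CXCL1 and CXCL3) differed between shTWIST1 + TWIST1 and shControl, beside 14.2% of all genes, and 3 of 10 (CXCL1, CXCL8 and CCL2) between shTWIST1 + TWIST1 and shTWIST1, beside 17.3%. The moderated F-test over the groups called CXCL1 (adjusted p = 0.0424), and it called 2.85% of all genes.

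**Figure D1:**
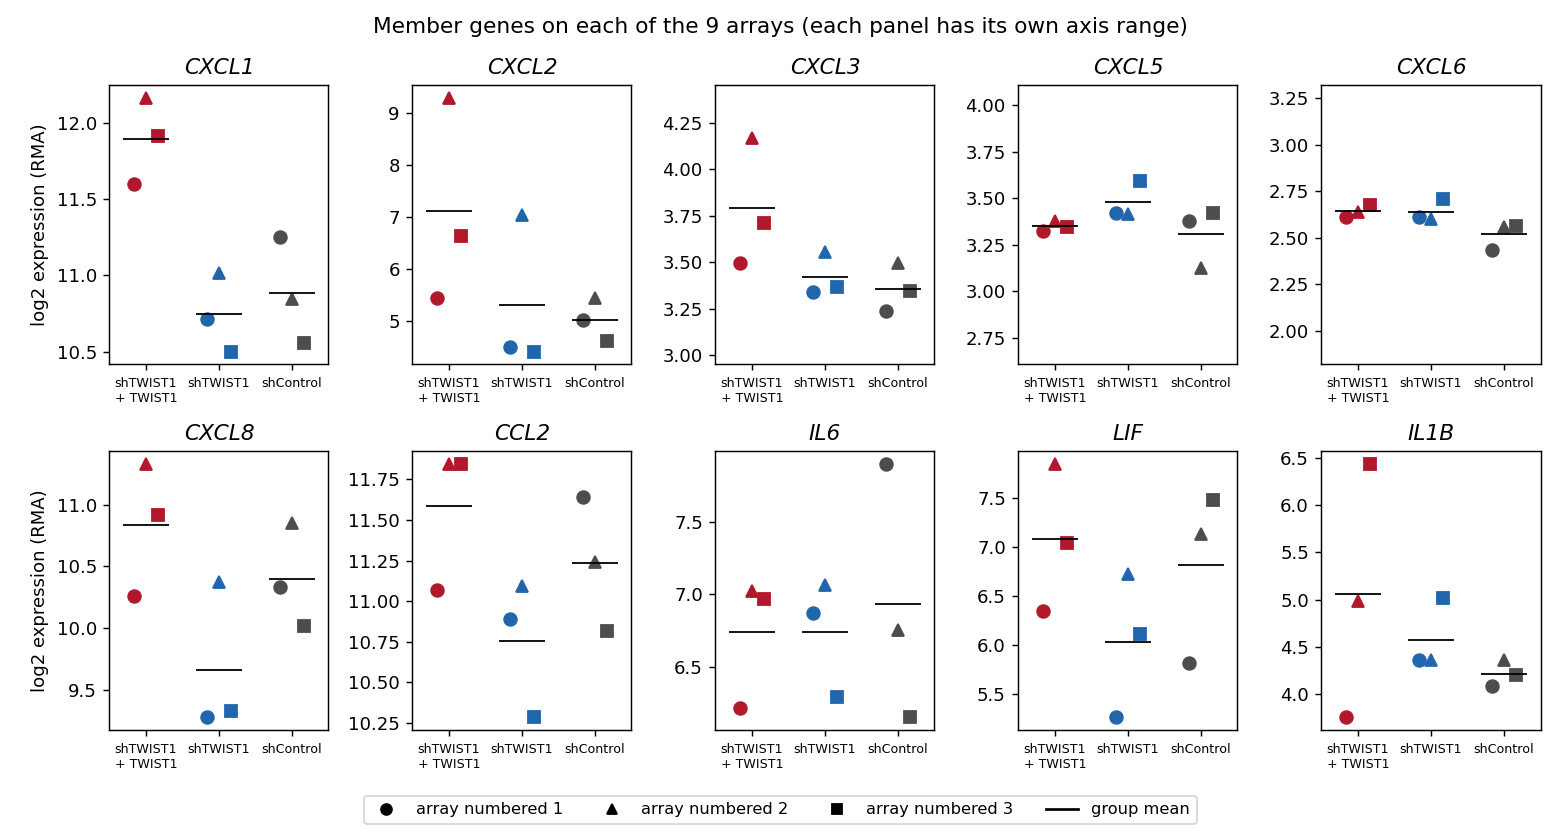
Log2 expression (RMA) of the 10 genes on each of the 9 arrays, by group, with circles, triangles and squares for arrays numbered 1, 2 and 3 and a line at each group mean; each panel has its own axis range. The CXCL1 points of shTWIST1 + TWIST1 cells, 11.60 to 12.17, sit above all others, while for CXCL2 and CXCL8 the triangles are the highest point of each group.

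CXCL1 (gene ID 2919), a neutrophil attractant first isolated as a melanoma growth factor, gave one of the brightest probe sets, at the 99.7th percentile of all genes, which reflects probe brightness as well as RNA. Its log2 expression was 11.60, 12.17 and 11.92 on the shTWIST1 + TWIST1 arrays, 10.72, 11.01 and 10.50 on the shTWIST1 arrays, and 11.25, 10.84 and 10.56 on the shControl arrays. Each shTWIST1 + TWIST1 array was above each array of both other groups, as for 10.4% of all genes against shControl and 9.77% against shTWIST1, and the other groups overlapped. CXCL1 rose by 1.01 in shTWIST1 + TWIST1 against shControl cells (2.02-fold, standard error 0.21, 95% interval 0.52 to 1.5, limma adjusted p = 0.0498). Against shTWIST1 it rose by 1.15 (2.22-fold, standard error 0.21, 95% interval 0.66 to 1.64, limma adjusted p = 0.0259). With the shRNA alone the difference from shControl was -0.14 (95% interval -0.63 to 0.35, limma adjusted p = 0.934). The call against shControl lay at the edge of the threshold. It remained in 5 of 19 alternatives, and of the fits that left out 1 array it remained in that without shControl array 1 (adjusted p = 0.0440), while the 8 others gave adjusted p from 0.0518 to 0.152. The call against shTWIST1 remained in 12 of 19 alternatives and was lost without shTWIST1 + TWIST1 array 2 (0.0549) or 3 (0.0785), without shTWIST1 array 1 (0.0977) or 3 (0.0907), and without shControl array 2 (0.05 when rounded). Without the array with high DCN and LUM, the differences were 1.16 (adjusted p = 0.0593) and 1.30 (adjusted p = 0.0347).

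CXCL2 (gene ID 2920), a close relative of CXCL1 with the same receptor, had a wider spread among the shTWIST1 + TWIST1 arrays (standard deviation 1.98) and among the shTWIST1 arrays (1.5) than any other member. The shTWIST1 + TWIST1 arrays read 5.43, 9.30 and 6.63, the shTWIST1 arrays 4.49, 7.04 and 4.40, and the shControl arrays 5.01, 5.43 and 4.61. The array numbered 2 was highest in every group, and the groups overlapped. The means differed by 2.11 between shTWIST1 + TWIST1 and shControl (4.30-fold, standard error 1.01, 95% interval -0.20 to 4.41, limma adjusted p = 0.399) and by 1.81 between shTWIST1 + TWIST1 and shTWIST1 (3.52-fold, 95% interval -0.49 to 4.12, limma adjusted p = 0.406). Neither difference passed the threshold. Against shTWIST1 the shTWIST1 + TWIST1 array was the higher one in 3 of 3 same-numbered pairs, with no share of all genes counted beside it. The sizes of both mean differences rested on shTWIST1 + TWIST1 array 2, without which they were 1.01 and 0.72. The difference between shTWIST1 and shControl, 0.29, was -0.57 without shTWIST1 array 2.

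CXCL3 (gene ID 2921), the third of these near copies, was read at a much dimmer level, at the 34.9th percentile and within the range of the leukocyte markers. Its values were 3.49, 4.17 and 3.71 on shTWIST1 + TWIST1 arrays, 3.34, 3.55 and 3.37 on shTWIST1 arrays, and 3.24, 3.49 and 3.34 on shControl arrays. Again array 2 was highest in each group, and the groups overlapped. The difference from shControl was 0.43 for shTWIST1 + TWIST1 (standard error 0.16, limma adjusted p = 0.272) and 0.06 for shTWIST1 (limma adjusted p = 0.973), and that between shTWIST1 + TWIST1 and shTWIST1 was 0.37 (limma adjusted p = 0.295).

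CXCL8 (gene ID 3576), or interleukin 8, a neutrophil attractant and angiogenic factor, was bright in all groups, at the 99.1st percentile. It read 10.26, 11.33 and 10.91 on shTWIST1 + TWIST1 arrays, 9.28, 10.37 and 9.33 on shTWIST1 arrays, and 10.33, 10.85 and 10.02 on shControl arrays. All groups overlapped, and in each the array numbered 2 was highest. Compared within a number, shTWIST1 + TWIST1 exceeded shTWIST1 by 0.98, 0.96 and 1.58, so the differences were closer together than the values. The mean difference of 1.17 (2.26-fold, 95% interval 0.32 to 2.03) missed the threshold (limma adjusted p = 0.150) and passed it once arrays were compared within their number (limma adjusted p = 0.0171 with that block). The fit with that block was the 1 of 19 alternatives in which CXCL8 passed there. In that fit 3 of 10 passed (CXCL1, CXCL8 and LIF, all higher), beside 5.4% of all genes in either direction and 2.59% higher. shTWIST1 lay below shControl in 3 of 3 same-numbered pairs, by a mean of -0.74 (95% interval -1.59 to 0.11, limma adjusted p = 0.786, and 0.326 with the block, where 0 of 10 and 0.0602% of all genes passed). shTWIST1 + TWIST1 and shControl differed by 0.43 (95% interval -0.42 to 1.29, limma adjusted p = 0.671).

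CXCL5 (gene ID 6374) and CXCL6 (gene ID 6372), which share the receptor CXCR2, were read near or under the dim level, at the 32.4th and 16.3rd percentiles. CXCL5 lay between 3.12 and 3.59 over all arrays and CXCL6 between 2.43 and 2.71. No difference between groups exceeded 0.17 in size or passed the threshold (limma adjusted p from 0.465 to 0.989). The groups were free of overlap for CXCL6 in both shTWIST1 + TWIST1 and shTWIST1 against shControl (both higher, as for 10.4% and 5.66% of all genes), and for CXCL5 in shTWIST1 + TWIST1 against shTWIST1 (lower, as for 8.86%), with gaps too small to pass the test.

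CCL2 (gene ID 6347), the monocyte attractant, was the other member beside CXCL1 at the top of the range, at the 99.7th percentile. Its values were 11.07, 11.84 and 11.85 on shTWIST1 + TWIST1 arrays, 10.89, 11.09 and 10.28 on shTWIST1 arrays, and 11.64, 11.24 and 10.82 on shControl arrays. The groups overlapped in every comparison. shTWIST1 + TWIST1 exceeded shTWIST1 by 0.83 (1.78-fold, 95% interval 0.14 to 1.52, limma adjusted p = 0.204), and within the same number by 0.18, 0.75 and 1.56. It differed from shControl by 0.35 (95% interval -0.34 to 1.04, limma adjusted p = 0.671), where those groups were not taken as paired. shTWIST1 lay below shControl in 3 of 3 same-numbered pairs, by a mean of -0.48 (95% interval -1.17 to 0.21, limma adjusted p = 0.828).

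IL6 (gene ID 3569), which drives STAT3 through gp130, showed no difference past the threshold and no common direction. The shTWIST1 + TWIST1 arrays read 6.22, 7.03 and 6.97, the shTWIST1 arrays 6.87, 7.06 and 6.29, and the shControl arrays 7.90, 6.75 and 6.15. The shControl group alone spanned the whole range of the 9 arrays, with a standard deviation of 0.89. The difference was -0.20 between shTWIST1 + TWIST1 and shControl (95% interval -1.18 to 0.79, limma adjusted p = 0.895), -0.19 between shTWIST1 and shControl (95% interval -1.18 to 0.79, limma adjusted p = 0.964) and -0.00 between shTWIST1 + TWIST1 and shTWIST1 (95% interval -0.99 to 0.99, limma adjusted p = 0.999). Each of these intervals is wider than those of CXCL1. Without shControl array 1 the first and the second of these values were both 0.29, and they were 0.06 without shTWIST1 + TWIST1 array 1 and 0.03 without shTWIST1 array 3.

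LIF (gene ID 3976), an IL6 family cytokine that signals through LIFR with gp130, read 6.35, 7.85 and 7.04 on shTWIST1 + TWIST1 arrays, 5.26, 6.73 and 6.11 on shTWIST1 arrays, and 5.82, 7.13 and 7.48 on shControl arrays. Array 1 was the lowest of each group, and the groups overlapped. Between shTWIST1 + TWIST1 and shTWIST1 the same-numbered differences were 1.09, 1.12 and 0.92, far closer to each other than the arrays of a group. Their mean of 1.05 (2.07-fold, 95% interval -0.21 to 2.31) gave a limma adjusted p of 0.380 with no block and of 0.0442 with the block. The block was the 1 of 19 alternatives in which LIF passed there, at the edge of the threshold. No array was left out of a fit with the block. shTWIST1 lay below shControl in 3 of 3 pairs, by a mean of -0.78 (95% interval -2.04 to 0.48, limma adjusted p = 0.849, and 0.394 with the block). shTWIST1 + TWIST1 differed from shControl by 0.27 (95% interval -0.99 to 1.53, limma adjusted p = 0.886).

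IL1B (gene ID 3553) is the NF-kB activating cytokine made as a precursor that caspase-1 cleaves. By its mean it lay at the 48.5th percentile, just above the leukocyte markers. Its median over the arrays, 4.36, was under the group means of the brightest of those markers, NKG7 (4.44 to 4.59). The lowest IL1B array lay at the 38.5th percentile. IL1B read 3.75, 4.98 and 6.44 on shTWIST1 + TWIST1 arrays, 4.36, 4.36 and 5.01 on shTWIST1 arrays, and 4.09, 4.36 and 4.20 on shControl arrays. The shTWIST1 + TWIST1 group held both the lowest and the highest array of the series, and its standard deviation was 1.35, against 0.13 in shControl. Its mean was 0.84 above shControl (95% interval -0.45 to 2.13, limma adjusted p = 0.566) and 0.48 above shTWIST1 (limma adjusted p = 0.719), and without shTWIST1 + TWIST1 array 3 these values were 0.15 and -0.21. In shTWIST1 against shControl the difference was 0.36 (limma adjusted p = 0.936).

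**Figure D2:**
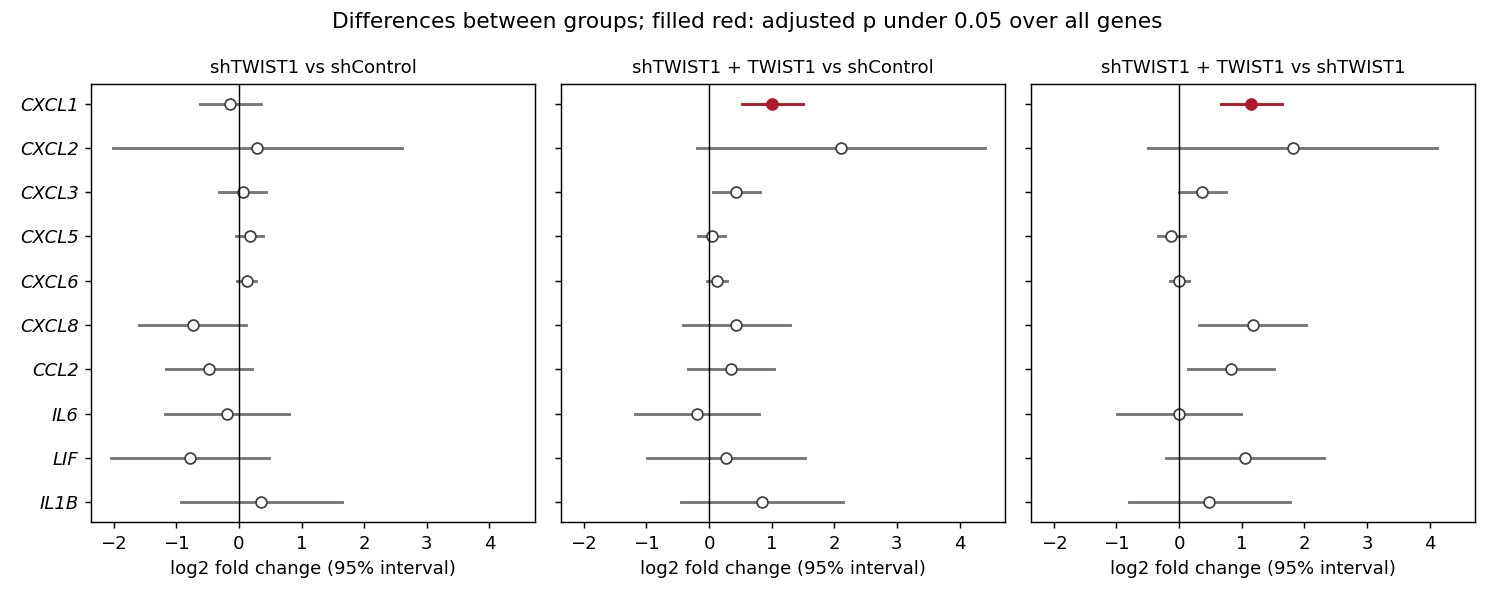
Log2 fold change of each of the 10 genes (points) with its 95% interval (lines) in the 3 comparisons, filled red where the limma adjusted p over all genes was under 0.05. CXCL1 is filled in both comparisons with shTWIST1 + TWIST1 (1.01 and 1.15), and the intervals of CXCL2, LIF and IL1B are the widest.

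Over the 10 genes the median log2 fold change was 0.39 in shTWIST1 + TWIST1 against shControl, 0.66 in shTWIST1 + TWIST1 against shTWIST1 and -0.04 in shTWIST1 against shControl, beside medians of 0.02, 0.01 and 0.02 over all genes. Values were above 0 for 9, 8 and 5 of the 10, and the share of all genes above 0 was not counted. The 9 include CXCL5 at 0.042 and the 8 include CXCL6 at 0.0033, so such counts rest in part on very small values. The first 2 of these comparisons share the shTWIST1 + TWIST1 arrays and are not independent of each other.

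For CXCL2, CXCL3, CXCL8 and LIF, arrays of the same number in different groups deviated alike. The array numbered 2 was the highest of each group for 3 of the 10 genes (CXCL2, CXCL3 and CXCL8), as for 7.91% of all genes. The mean deviation of the arrays numbered 1, 2 and 3 from their group means was -0.84, 1.44 and -0.60 for CXCL2, -0.34, 0.55 and -0.21 for CXCL8, and -0.83, 0.60 and 0.24 for LIF. In a test added after these values had been seen, of the replicate number with the group in the model, 0 of the 10 passed over all genes (limma, as for 0.015% of all genes) and 4 had an unadjusted p under 0.05, beside 13.9% of all genes: CXCL2, CXCL3, CXCL8 and LIF. For these the adjusted p was 0.215, 0.274, 0.167 and 0.120. The labels do not say what the number stands for.

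With the group means removed, CXCL1 tracked CCL2 (Pearson r = 0.93 over the 9 arrays) and IL6 (0.94), and CXCL2 tracked CXCL3 (0.91) and CXCL8 (0.91). LIF went with CXCL3 (0.77) and CXCL2 (0.66) but not with CXCL1 (0.01), CCL2 (-0.01) or IL6 (-0.29). These are descriptions of 9 arrays that share their normalization and, in part, their replicate number. Outside the list, the genes whose log2 values over the 9 arrays were most like those of CXCL8 were UQCRBP1 (r = 0.977), FGFR1OP2 (0.964) and APLF (0.960), for CCL2 they were CHMP5 (0.942), USP47 (0.940) and DVL3 (0.919), and for IL6 VAMP2 (0.908), TICAM1 (0.898) and ANXA7 (0.878). These genes were picked as the highest of all genes over only 9 arrays, and such picking alone can give high values. Their ranges over the arrays ran from 0.26 (FGFR1OP2) to 0.87 (VAMP2), against 2.05 for CXCL8, 1.56 for CCL2 and 1.75 for IL6.

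**Figure D3:**
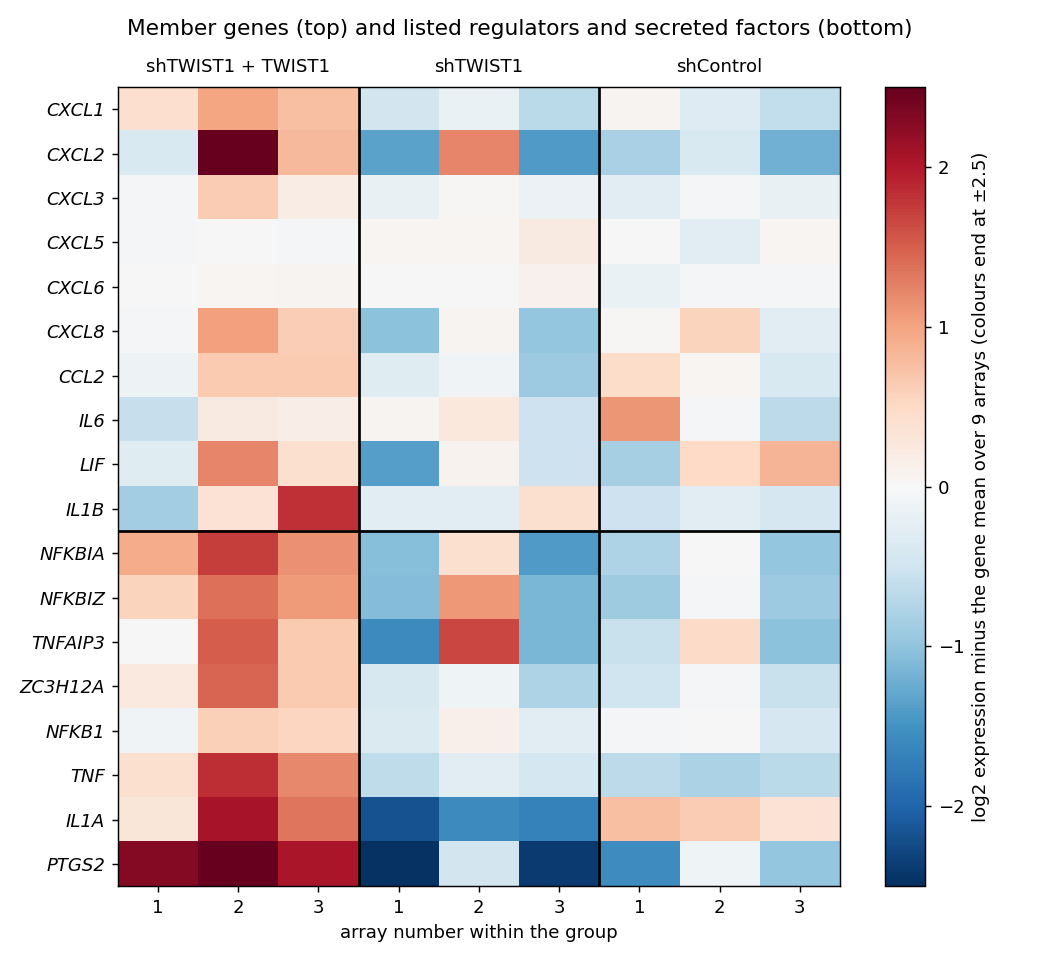
Log2 expression of the 10 genes (top) and of 8 regulators and secreted factors (bottom), each minus its mean over the 9 arrays, with one column per array by group and number; colours end at 2.5 in either direction. The 8 bottom genes were chosen after their values were seen. CXCL2, NFKBIZ and TNFAIP3 are darkest red on the arrays numbered 2, in shTWIST1 as well as in shTWIST1 + TWIST1 cells.

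Among the 11 receptor genes for these ligands, 2 (LIFR and IL1RAP) fell in shTWIST1 + TWIST1 cells against shControl, beside 1.55% of all genes, and 1 (LIFR) fell against shTWIST1, beside 1.77%. No other passed the threshold. The list medians were 0.01 and -0.08 in these comparisons. LIFR read 7.77, 7.49 and 7.35 on shTWIST1 + TWIST1 arrays, 8.34, 8.19 and 8.24 on shTWIST1 arrays, and 8.26, 8.10 and 8.31 on shControl arrays. It fell by 0.69 against shControl (standard error 0.12, limma adjusted p = 0.0201) and by 0.72 against shTWIST1 (limma adjusted p = 0.0142), with no overlap in either. Leaving out 1 array at a time, these calls held in 5 and 7 of 9 fits, with adjusted p up to 0.0855 and 0.0662. IL1RAP, the partner chain of IL1R1, read 7.17, 7.07 and 6.63 on shTWIST1 + TWIST1 arrays and 7.70, 7.98 and 8.03 on shControl arrays, and fell by 0.94 (standard error 0.16, limma adjusted p = 0.0243), which held in 6 of 9 such fits, with adjusted p up to 0.0956. The shTWIST1 arrays lay between them at 7.41, 7.70 and 7.34. The signalling chain IL6ST was bright and differed by at most 0.22 (limma adjusted p from 0.622 to 1), and IL1R1 by at most 0.05. The chemokine receptors CXCR1, CXCR2 and CCR2, the IL1 decoy receptor IL1R2 and the scavenging receptor ACKR2 were dim, between 2.08 and 3.17 on every array.

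Of 30 other chemokine genes, 0 passed in any comparison (limma). Over all genes, 2.62% passed in shTWIST1 + TWIST1 against shControl, 3.42% against shTWIST1 and 0.0652% in shTWIST1 against shControl. A count of 0 in a list this short is near those shares. Of the 30, 15 were dim, and the medians were 0.02 against shControl and -0.01 against shTWIST1 in shTWIST1 + TWIST1 cells. The interferon-induced CXCL10 came nearest to the threshold and was dim by its mean (25.6th percentile). It read 4.41, 5.03 and 3.07 on shTWIST1 + TWIST1 arrays, 2.35, 2.98 and 2.22 on shTWIST1 arrays, and 2.16, 2.57 and 2.14 on shControl arrays. Its shTWIST1 + TWIST1 arrays lay above all others, and it differed by 1.88 from shControl (limma adjusted p = 0.0748) and by 1.66 from shTWIST1 (limma adjusted p = 0.0936, and 0.0238 with the replicate block). With that block 1 of the 30 passed against shTWIST1, beside 5.4% of all genes. CCL5, the T cell attractant, read 7.01 on shTWIST1 + TWIST1 array 2 and from 3.46 to 4.11 on all others. PF4V1, PF4 and PPBP, which lie between the members in the chromosome 4 cluster, read at most 3, with no difference over 0.14 in size.

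On the IL6 side, 0 of 10 other family ligands and receptors and 0 of 9 genes of gp130 signalling and feedback passed (limma). Of all genes, 2.62% passed in shTWIST1 + TWIST1 cells against shControl and 3.42% against shTWIST1. The medians of these lists lay between -0.06 and 0.04 in shTWIST1 + TWIST1 cells. OSMR, a receptor chain that pairs with gp130, read 7.92, 7.43 and 7.39 on shTWIST1 + TWIST1 arrays, 8.48, 8.15 and 8.11 on shTWIST1 arrays, and 8.22, 8.19 and 8.25 on shControl arrays, with a difference of -0.67 from shTWIST1 (limma adjusted p = 0.0581, and 0.0236 with the block). SOCS3, the feedback inhibitor induced by STAT3, differed by -0.78 from shTWIST1 (limma adjusted p = 0.0881, and 0.0192 with the block) and STAT3 itself by -0.57 from shControl (limma adjusted p = 0.0537). With the block, 1 of those 10 and 1 of those 9 genes passed against shTWIST1, both lower, beside 5.4% of all genes in either direction. IL11, another ligand of the family, differed by at most 0.54 in size (limma adjusted p from 0.350 to 0.862).

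Among 15 genes of the IL1 family and its processing, IL1A passed in shTWIST1 + TWIST1 against shTWIST1. This was 1 of 15, beside 3.42% of all genes in either direction and 1.65% higher. IL1A, which binds the same receptor as IL1B, read 8.63, 10.38 and 9.65 on shTWIST1 + TWIST1 arrays, 6.13, 6.72 and 6.63 on shTWIST1 arrays, and 9.07, 8.95 and 8.69 on shControl arrays. The shTWIST1 arrays lay below all others. IL1A rose by 3.06 against shTWIST1 (8.33-fold, standard error 0.39, limma adjusted p = 0.00502), in all 9 fits that left out 1 array. In shTWIST1 against shControl its difference of -2.41 did not pass over all genes (limma adjusted p = 0.148), and shTWIST1 + TWIST1 differed from shControl by 0.65 (limma adjusted p = 0.509). CASP4, an inflammatory caspase, differed by -1.39 from shTWIST1 (limma adjusted p = 0.0553, and 0.00899 with the block). With the block 1 gene of this list passed higher and 1 lower against shTWIST1, beside 5.4% of all genes in either direction.

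The 17 regulators of transcription and mRNA decay of such genes gave 0 calls (limma). Of all genes, 2.62% passed in shTWIST1 + TWIST1 cells against shControl and 3.42% against shTWIST1. The array numbered 2 was highest in each group for 7 of the 17, as for 7.91% of all genes. NFKBIA, the NF-kB inhibitor that NF-kB induces, read 9.55, 10.36 and 9.77 on shTWIST1 + TWIST1 arrays, 7.56, 9.02 and 7.20 on shTWIST1 arrays, and 7.86, 8.61 and 7.65 on shControl arrays. Its shTWIST1 + TWIST1 arrays lay above the rest, by a mean of 1.96 over shTWIST1 (limma adjusted p = 0.0645, and 0.00486 with the block) and 1.85 over shControl (limma adjusted p = 0.0952). ZC3H12A, the nuclease regnase-1 that degrades IL6 mRNA, differed by 1.21 from shTWIST1 (limma adjusted p = 0.0800, and 0.0140 with the block). With the block 2 of the 17 passed against shTWIST1, both higher, beside 2.59% of all genes higher. TNFAIP3 (A20), another NF-kB feedback gene, reached 7.57 on shTWIST1 array 2 but 4.30 and 4.76 on the others of that group, against 5.91, 7.42 and 6.55 on shTWIST1 + TWIST1 arrays. The NF-kB subunit RELA differed by at most 0.13 in size. JUN was lower in shTWIST1 + TWIST1 cells, with means of 6.01, 6.97 and 6.64 in shTWIST1 + TWIST1, shTWIST1 and shControl cells. FOSL1 was lower too, at 8.99, 9.51 and 9.44 in that order. The list medians were 0.09 against shControl and 0.07 against shTWIST1, with 9 of the 17 above 0 in each.

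Of 13 other secreted inflammatory proteins and enzymes, TNF, PTX3, TNFAIP6 and PTGS2 rose and IL15 fell in shTWIST1 + TWIST1 cells against shControl, 4 higher and 1 lower, beside 1.08% and 1.55% of all genes. Against shTWIST1 these 5 passed again with the same signs and SAA1, a dim probe set, rose as well (0.86, limma adjusted p = 0.0436, held in 2 of 9 fits that left out 1 array). That made 5 higher and 1 lower, beside 1.65% and 1.77% of all genes. This list was chosen with earlier results of these data known, so its counts beside all genes are description and no test. The list medians were 0.04 and 0.86. TNF, the cytokine that activates NF-kB, read 4.40, 5.85 and 5.21 on shTWIST1 + TWIST1 arrays, 3.36, 3.75 and 3.55 on shTWIST1 arrays, and 3.34, 3.21 and 3.34 on shControl arrays. No shTWIST1 + TWIST1 value overlapped the rest. By its mean over the 9 arrays TNF lay at the 41.3rd percentile, within the range of the leukocyte markers. Single arrays ran from the 30.5th to the 63.7th percentile, the highest being shTWIST1 + TWIST1 array 2. TNF rose by 1.86 against shControl (standard error 0.31, limma adjusted p = 0.0190) and by 1.6 against shTWIST1 (limma adjusted p = 0.0299), calls that held in 5 and 2 of the 9 fits that left out 1 array, with adjusted p up to 0.0723 and 0.114. IL15, a T cell and NK cell growth factor, fell by 1.09 and 0.82 (limma adjusted p = 0.0140 and 0.0377), the second of which held in 2 of 9 such fits. IL15 lay at the 39.4th percentile, also within the range of those markers. PTX3, a pattern recognition protein, rose by 2.94 and 2.5 (limma adjusted p = 0.0168 and 0.0275, held in 6 and 3 of 9 such fits), and PTGS2, the inducible cyclooxygenase, by 3.53 and 4.42 (limma adjusted p = 0.0279 and 0.00938, held in 4 and 9). TNFAIP6, a hyaluronan-binding protein induced by TNF and IL1, was the one listed gene that passed in shTWIST1 against shControl, where it fell by 2.3 (limma adjusted p = 0.000252). In shTWIST1 + TWIST1 cells it rose by 0.78 against shControl (limma adjusted p = 0.0199, held in 5 of 9 such fits, with adjusted p up to 0.0855) and by 3.08 against shTWIST1 (limma adjusted p = 1.44e-05, held in 9).

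**Figure D4:**
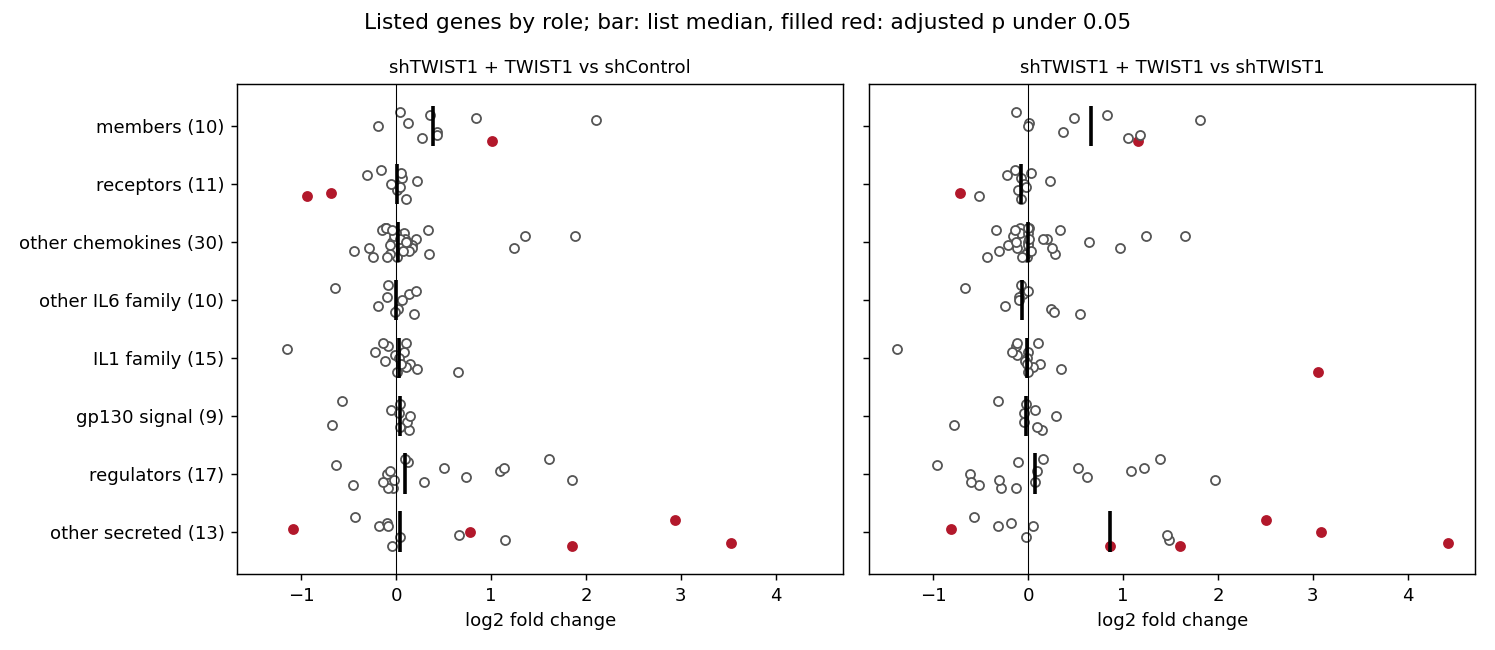
Log2 fold change of every analysed gene of the member list and of 7 related lists in shTWIST1 + TWIST1 against shControl (left) and against shTWIST1 (right), 1 point per gene, with a bar at the list median and red filling where the limma adjusted p over all genes was under 0.05. The other chemokines, the other IL6 family genes and the regulators have no red point, where 2.62% (left) and 3.42% (right) of all genes passed. The medians of the 10 members are 0.39 and 0.66.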

How the data were processed

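Expression was measured in total RNA of WM793TR cells, amplified with NuGen Ovation Pico, on 9 single-colour arrays, 3 per group. The deposited values are log2 expression that the authors made with RMA, which corrects background, equalizes distributions between arrays and summarizes probes into probe sets. Its version, the array and its chip definition are not given in the sources used here. Array medians lay between 4.73 and 4.79, no array pair had over 7.41% identical values, and precision is limited by how few arrays there are, which have no sequencing depth. Probe sets are gene IDs, named through GEO's platform pairing. 19935 had a symbol and 738 had none in that pairing, and 19934 genes were tested.

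One limma 3.58.1 fit in R 4.3.3 covered the 3 groups with no block, with two-sided contrasts, a moderated F-test and Benjamini-Hochberg adjustment over all genes at a threshold of 0.05. Fold changes are on the log2 scale. The test was checked on simulated data drawn independently for each array. That check held no shared effect of the replicate number, so it does not cover one. Same-numbered arrays were taken as paired where each correlation of their deviations from group means exceeded 0.1. Between shTWIST1 + TWIST1 and shTWIST1 they were 0.14, 0.30 and 0.30, and between shTWIST1 and shControl 0.32, 0.51 and 0.29. Between shTWIST1 + TWIST1 and shControl they were 0.03, 0.22 and 0.11, so those groups were not taken as paired. The pairing comes from the data, since the labels give only the numbers.

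The 10 members and all lists were chosen with earlier results of these data known. Named were all members, listed receptors, up to 4 called genes of each list and comparison with the largest change, list genes without a call only with their values, and the 3 genes most like CXCL8, CCL2 and IL6. Some listed genes were not analysed here. Of the 6 endothelial and 6 keratinocyte markers, 4 each were dim and 0 passed in any comparison, where at most 3.42% of all genes passed. Genes on the Y chromosome are not named. Alternatives were quantile normalization or median centring, leaving out dim genes, a trended robust prior, array weights, every probe set, the replicate block, a fit to the 6 arrays of a comparison, the methods' t-test (two-tailed, unequal variance) and leaving out each array. The fits without the arrays numbered 2, the test of the replicate number and the alternatives for genes of other lists were added after seeing the data. Plots used matplotlib 3.10.9 and promoter alignments Biopython 1.88.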

Additional observations from a re-analysis of the deposited data

How the results depend on the processing

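In shTWIST1 against shControl, 0 of the 10 genes passed with limma as described and in each of the 19 alternatives. Counts over all genes there were 13 as described, 25 with array weights, 0 with the methods' t-test, 5 without the arrays numbered 2, and 8 to 14 when 1 array was left out. In shTWIST1 + TWIST1 against shControl, 523 genes passed, with 260 from only the 6 arrays compared, 3 by the t-test, 278 without the arrays numbered 2 and 264 to 523 when 1 array was left out. Against shTWIST1, 682 genes passed, with 353 from only the 6 arrays, 2 by the t-test and 295 to 887 when 1 array was left out. CXCL1 against shControl, 1 of 10 as described, was lost (0 of 10) with median centring (adjusted p = 0.0538), array weights (0.0509), every probe set tested (0.05 when rounded), only the 6 arrays (0.111), the t-test (0.537) and without the arrays numbered 2 (0.196), and 0 to 1 passed when 1 array was left out. Against shTWIST1, 0 of 10 passed with the t-test (0.410) and without the arrays numbered 2 (0.0828), and 0 to 1 when 1 array was left out. By the F-test, 0 passed with array weights and without the arrays numbered 2, and 0 to 1 when 1 array was left out.

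With the replicate number as a block, 12, 801 and 1076 genes passed in shTWIST1 against shControl, shTWIST1 + TWIST1 against shControl and shTWIST1 + TWIST1 against shTWIST1, and 0, 1 and 3 of the 10 (CXCL1, CXCL8 and LIF in the last), with 2 by the F-test. The block changed no other call of the 10.

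Small values changed sign. CXCL2 in shTWIST1 against shControl was -0.0918 with array weights and -0.37 without the arrays numbered 2. Without those arrays CXCL5 was -0.0652 in shTWIST1 + TWIST1 against shControl, and CXCL6 was -0.0151 and IL6 0.0152 against shTWIST1. CXCL6 there was -0.0052 with median centring and -0.0007 with array weights. When 1 array was left out, shTWIST1 against shControl ranged from -0.30 to 0.0426 for CXCL1, -0.57 to 0.74 for CXCL2, -0.0047 to 0.13 for CXCL3 and -0.59 to 0.29 for IL6. shTWIST1 + TWIST1 against shControl ranged from -0.0505 to 0.10 for CXCL5, -0.59 to 0.29 for IL6 and -0.23 to 0.63 for LIF, and against shTWIST1 from -0.0166 to 0.0367 for CXCL6, -0.23 to 0.26 for IL6 and -0.21 to 1.14 for IL1B. The causes were not tested. With 3 arrays per group, single arrays decide several of these values, and detection calls were not used here, which leaves weak probe sets such as those of CXCL5 and CXCL6 without one.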
